A study of Mus musculus with 366 samples.

Results

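The aortas of F1 mice with an LG/J mother (4 arrays) were compared with those of F1 mice with a C57BL/6J mother (6 arrays), in a panel that holds 356 further arrays from 99 other strains. Members were chosen by the strain label alone, and each array holds the RNA of 1 female mouse at 24 weeks of age. In both groups the father was a C57BL/6J male that carried the human ApoE-Leiden and CETP transgenes, so that all 10 mice share the dyslipidemic background. LG/J mice are therefore hybrids with 1 LG/J and 1 C57BL/6J allele at each autosomal gene, whereas C57BL/6J mice are C57BL/6J throughout apart from the transgenes. All mice were fed chow for 8 weeks and a Western diet for the following 16 weeks. The aorta was taken from the arch to the midabdomen, and the fat around the adventitia was removed. The fathers were heterozygous for ApoE-Leiden and homozygous for CETP. Per the study's methods, mice were fasted from early morning before euthanasia. SM/J (4 arrays) and the strains of the remaining arrays had the same kind of father and diet, and served as further references.

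LG/J is an inbred line derived from mice selected for large body size, and SM/J is its usual counterpart, selected for small body size. The media of the aorta is built of smooth muscle cells, which hold actin, myosin and their regulators and lay down elastin, collagens and proteoglycans. Fat cells around the vessel synthesize fatty acids and triglycerides and, where they are of the brown type, burn them. Enzymes of cholesterol synthesis and of fatty acid synthesis are transcribed under the control of the SREBP factors, which act when sterols are scarce or insulin is high.

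Values are log2 intensities, so that a difference of 1 is a 2-fold change, and no level of one probe set is set against that of another. The array values come with no detection calls, so no fold is given where 1 strain lies near the floor of the scale, and such a difference is limited by the floor. The arrays of both groups had like medians, 3.25 to 3.27 in LG/J and 3.25 to 3.32 in C57BL/6J. Pairs of LG/J arrays correlated at 0.988 to 0.993 over all probe sets, and C57BL/6J replicates 3 to 6 at 0.992 to 0.996 among themselves. C57BL/6J replicates 1 and 2 stood apart: they correlated at 0.973 to 0.985 with the other C57BL/6J arrays and had the lowest smooth muscle markers of the group. The main counts are therefore also given without this pair. The labels give no batch for any array, and each p-value measures only the spread between these mice. Mouse numbers in the labels run across the whole series. Those of the LG/J mice are consecutive, as are those of C57BL/6J replicates 3 to 6, whereas replicates 1 and 2 lie outside that run. The part of this order in the differences was not tested.

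Markers of fat were bright on every array, although the tissue is labelled aorta and had been cleaned. Adiponectin (Adipoq), a hormone of fat cells, lay at 12.40, 12.48, 12.49 and 12.51 in LG/J, against 12.40, 12.50 and 12.61 (lowest, median, highest) in C57BL/6J. Fabp4, the fatty acid carrier of adipocytes, lay between 13.45 and 13.56 in LG/J and between 13.28 and 13.45 in C57BL/6J, and Ucp1, the uncoupling protein of brown fat, lay between 12.34 and 12.59 in LG/J and between 12.67 and 12.94 in C57BL/6J. Smooth muscle markers, given below, were bright on the LG/J arrays and ranged from dim to bright on the C57BL/6J arrays. In such bulk samples, fewer cells of a type and less RNA per cell cannot be told apart. These values lie near the upper end of the scale, where the highest value on these arrays was 13.56 in LG/J and 13.51 in C57BL/6J.

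Of 45141 probe sets, 8230 passed an adjusted p of 0.05 between LG/J and C57BL/6J, that is 18.2% of those tested. Of these, 3231 were higher in LG/J (7.16%) and 4999 were lower (11.1%), and the median difference over all probe sets was -0.02. With 1 probe set per gene, which is how the gene lists below are read, 9.12% of 17097 genes were higher and 13.3% were lower, and the 4 and 6 values did not overlap for 20.3%. Without C57BL/6J replicates 1 and 2 together, 11.4% of genes were higher and 14.5% were lower. On 43 gene lists with 781 measured genes, 256 passed. A score, where given, is the mean log2 intensity of a list on 1 array.

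**Figure D1:**
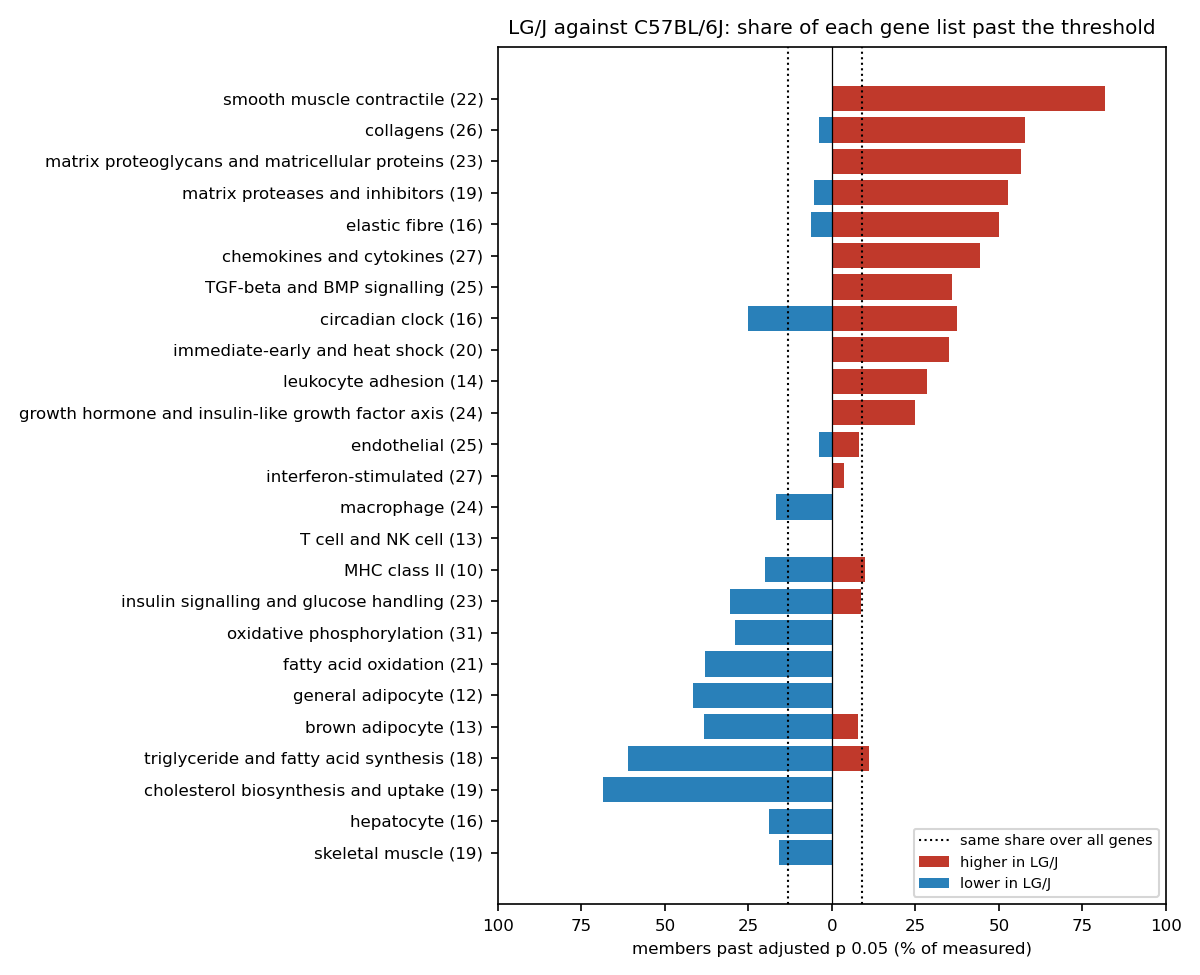
Share of the measured members of 25 gene lists (number of members in parentheses) that passed an adjusted p of 0.05 between 4 LG/J and 6 C57BL/6J arrays, in percent, with genes higher in LG/J to the right and genes lower in LG/J to the left. Dotted lines mark the same shares over all genes, 9.12% higher and 13.3% lower, and the smooth muscle list (18 of 22 higher) and the cholesterol list (13 of 19 lower) extend farthest.

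Contractile genes of smooth muscle were higher in LG/J. Of 22 measured members, 18 rose and none fell, with a median difference of 2.52, and without C57BL/6J replicates 1 and 2 the count was 18 with a median of 2.14. Myh11, the heavy chain of smooth muscle myosin, had 11.30, 11.02, 11.66 and 10.84 in the 4 LG/J aortas, against 4.71, 7.68 and 9.16 (lowest, median, highest) in C57BL/6J. Every LG/J array lay above every C57BL/6J array, and the C57BL/6J arrays were spread widely. Myh11 was 15.6-fold higher (log2 difference 3.96 ± 0.80 SE, adjusted p = 0.00513), and 2.86 higher on the log2 scale without the 2 low arrays. Cnn1, which encodes the thin-filament protein calponin, had 9.74, 9.66, 10.20 and 9.28 in LG/J, against 3.26, 5.71 and 7.43 in C57BL/6J. The groups did not overlap, and Cnn1 was higher in LG/J (4.11 ± 0.69, adjusted p = 0.00169), by 3.25 on the log2 scale without the 2 low arrays.

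Acta2, smooth muscle α-actin, was less far apart: it had 12.90, 12.89, 12.96 and 12.73 in LG/J, against 8.88, 10.75 and 11.69 in C57BL/6J (2.37 ± 0.49, adjusted p = 0.0063). The LG/J values lay close together near the top of the scale. Actg2, the enteric form of smooth muscle actin, was at 7.52, 7.24, 8.02 and 6.53 in LG/J, against 3.14, 3.85 and 4.63 in C57BL/6J (3.51 ± 0.33, adjusted p = 8.045e-05). Itga8, an integrin chain of contractile cells, was at 8.51, 8.46, 9.08 and 7.62 in LG/J, against 2.58, 3.75 and 5.94 in C57BL/6J (4.33 ± 0.60, adjusted p = 0.000585). None of these groups overlapped. Csrp1, Lmod1 and Vcl, which encode a LIM protein, an actin nucleator and vinculin, were 2.67, 3.03 and 1.28 higher. Myocd, the coactivator that drives this program with serum response factor, was at 6.10, 5.68, 6.04 and 5.88 in LG/J, against 2.96, 3.84 and 4.97 in C57BL/6J (2.02 ± 0.38, adjusted p = 0.00322). Desmin (Des) did not pass, at 7.92 to 8.62 in LG/J and 7.72 to 8.85 in C57BL/6J.

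The exact permutation test over the 210 possible splits of the 10 arrays gave p = 0.00476 for Cnn1, Actg2 and Itga8, the smallest value that it can give, and p = 0.00952 for Myh11, Acta2 and Myocd. The groups do not overlap in any of these genes, and the test values follow from that same separation. They are not adjusted and are no separate support.

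Serum response factor binds the CArG box, and the upstream stretches of Myl9 and Vcl are shown because both genes hold one and both rose. Of the 19 smooth muscle genes with a promoter window of 250 bases before the start site in RefSeq, 3 held a CArG box on either strand, 2 of them past the threshold, against 1.62% of all genes. Both stretches are 120 bases long and lie upstream of the start (GRCm38.p6, plus strand, 5′ to 3′). Myl9 lies at chr2:156775224-156775343 and Vcl at chr14:20929158-20929277, and capitals mark the CArG box.
Myl9: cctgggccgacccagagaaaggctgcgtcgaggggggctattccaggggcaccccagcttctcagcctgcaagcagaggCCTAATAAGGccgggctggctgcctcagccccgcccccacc
Vcl: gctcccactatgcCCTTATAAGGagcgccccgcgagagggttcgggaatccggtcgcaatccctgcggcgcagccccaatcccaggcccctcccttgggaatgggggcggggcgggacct
Such a match is a description of the letters and not a measured binding site.

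**Figure D2:**
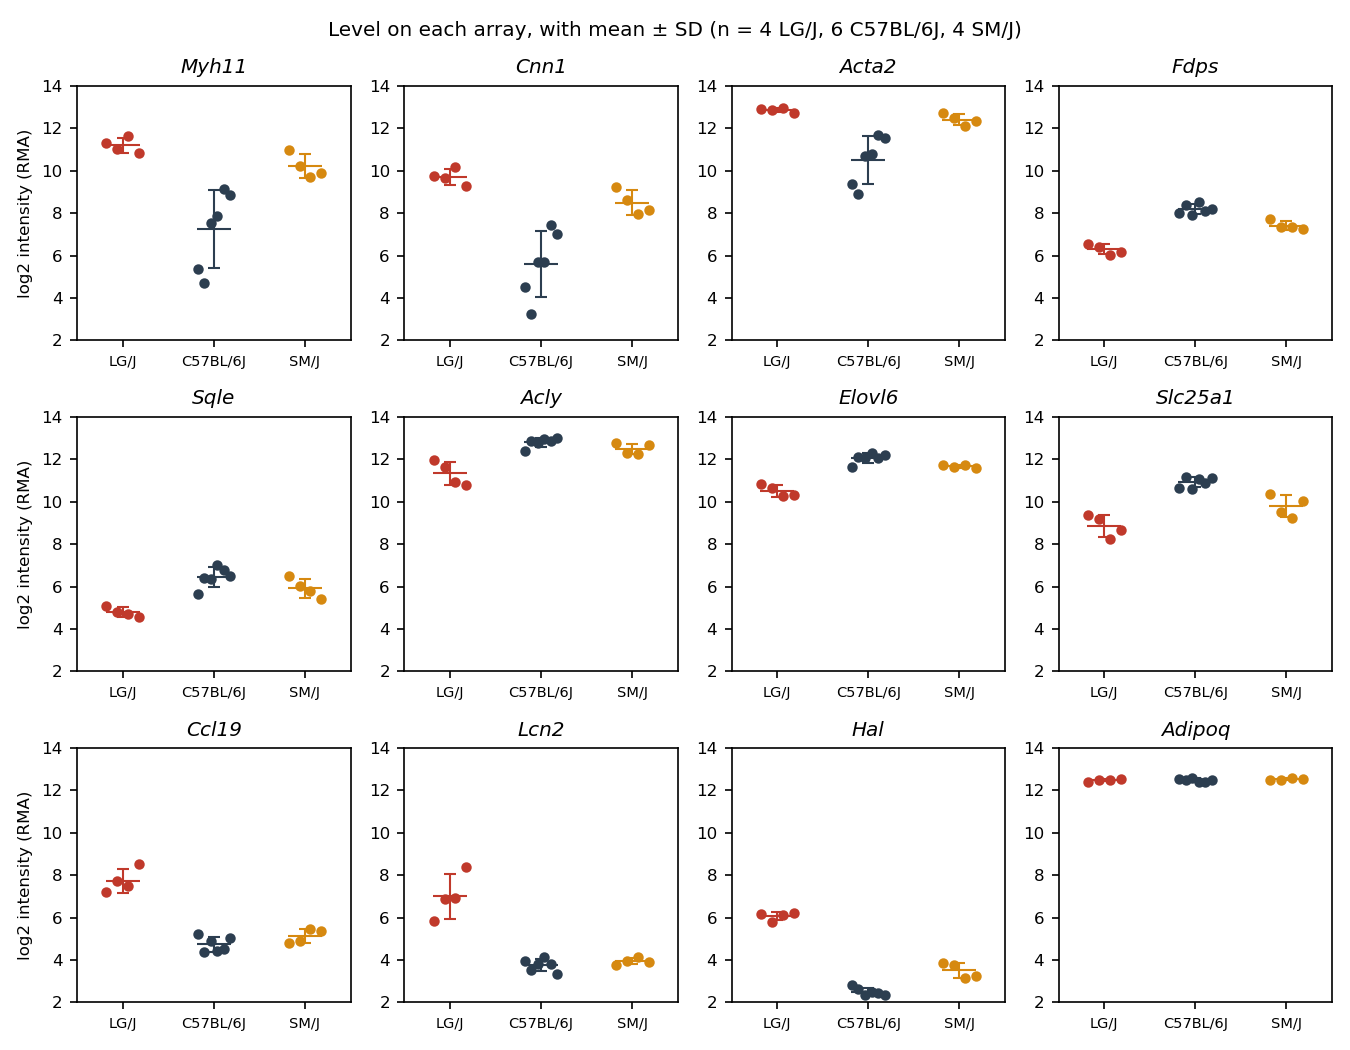
Log2 intensity of 12 genes on each array of LG/J (left, 4), C57BL/6J (middle, 6) and SM/J (right, 4), with the mean and SD of each strain. The 4 LG/J arrays lie above all C57BL/6J arrays for Myh11, Cnn1, Acta2, Ccl19, Lcn2 and Hal, below them for Fdps, Sqle, Acly, Elovl6 and Slc25a1, and within their range for Adipoq.

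Among the 101 strain means, LG/J was the highest for 17 of the 22 smooth muscle genes, whereas it was the highest for 860 (5.03%) of all 17097 genes. The smooth muscle score was 9.52, 9.19, 9.75 and 8.96 in LG/J, against 6.21, 7.06 and 8.08 (lowest, median, highest) in C57BL/6J. Counted from the lowest of 101 strains, the score placed LG/J at rank 101, C57BL/6J at rank 20 and SM/J at rank 81. The comparison thus sets the strain at the upper end of the panel against one toward its lower end. Over the 356 arrays of other strains, the 18 genes that rose correlated with the score at 0.87 to 0.96. This is a description across arrays, and the score includes the genes themselves.

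Several of the largest single differences followed the same markers. Of the 15 genes with the largest rise in LG/J, Sost, Fblim1, Susd5, Ncam1, Wwp2, Adcy5 and Ppp1r14a were not on the smooth muscle list. Sost, which encodes the Wnt inhibitor sclerostin, had 9.65, 8.92, 9.78 and 8.47 in LG/J, against 3.2, 4.73 and 6.92 in C57BL/6J (4.38 ± 0.63, adjusted p = 0.000724). Ppp1r14a, an inhibitor of myosin phosphatase, had 8.09, 7.81, 8.65 and 7.48 in LG/J, against 3.74, 4.54 and 5.24 in C57BL/6J (3.42 ± 0.29, adjusted p = 4.717e-05). Neither gene overlapped between the strains. All of the 7 genes correlated with the smooth muscle score at 0.90 to 0.94 over the other strains, as did Itga8. Of Itga8 and Wwp2 the probe set with the larger difference was read, and their brightest probe sets differed by 3.64 and 2.43.

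Genes of the extracellular matrix were higher as well. Of 26 collagen genes, 15 rose and 1 fell, with a median difference of 0.65, and of 23 proteoglycans and matricellular proteins 13 rose and none fell (median 0.85). Of 16 elastic fibre genes, 8 rose and 1 fell. Vcan, the large proteoglycan versican, had 7.53, 7.26, 8.03 and 7.0 in LG/J, against 4.06, 4.71 and 5.55 in C57BL/6J (2.67 ± 0.28, adjusted p = 0.000128). Without C57BL/6J replicates 1 and 2, the counts were 15 and 1 collagens, 14 and 0 proteoglycans and 8 and 1 elastic fibre genes. Eln, elastin itself, had 8.45, 7.99, 9.36 and 8.16 in LG/J, against 5.34, 5.82 and 6.80 in C57BL/6J (2.56 ± 0.31, adjusted p = 0.000279). Mfap4, a microfibril protein, had 9.70, 9.21, 10.36 and 9.45 in LG/J, against 6.23, 6.78 and 7.48 in C57BL/6J (2.85 ± 0.25, adjusted p = 5.569e-05). Every LG/J array exceeded every C57BL/6J array for these 3 genes. Fbln5, Emilin1 and Ltbp3, which help to assemble elastic fibres, were 1.76, 1.82 and 0.88 higher. Bgn and Ogn, small leucine-rich proteoglycans, were 1.91 and 1.40 higher, and Mgp, the matrix Gla protein that inhibits calcification, was 1.28 higher. Basement membrane collagens Col18a1 and Col4a5 were 2.75 and 2.05 higher, Col5a2 was 1.30 higher and the crosslinking enzyme gene Loxl1 0.84 higher. Col1a1, the main fibrillar collagen of the adventitia, did not pass, at 5.87 to 6.60 in LG/J and 5.12 to 6.61 in C57BL/6J.

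Matrix proteases and their inhibitors showed 10 genes higher and 1 lower of 19. Timp1, an inhibitor of matrix metalloproteinases, had 5.81, 6.95, 6.27 and 6.66 in LG/J, against 3.38, 4.07 and 4.43 in C57BL/6J. The groups lay clearly apart, and the level was higher in LG/J (2.39 ± 0.24, adjusted p = 0.00011). The proteases Mmp3 and Mmp23 were 1.65 and 1.26 higher. Mmp19 was the exception and fell by 0.92, with 3.82, 3.93, 3.25 and 3.89 in LG/J, against 4.54, 4.58 and 4.93 in C57BL/6J. It differed by -0.46 in a fit over all strains with the smooth muscle score as a covariate (adjusted p = 0.0895). Of 25 genes of TGF-beta and BMP signalling, 9 rose and none fell. Among them were the receptors Tgfbr1 (0.75) and Tgfbr3 (0.58), the decoy receptor Bambi (1.13) and the target Id3 (0.99).

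The smooth muscle score moved with these matrix genes, and it was entered as a covariate in a fit over all strains, chosen after the values were seen. Of the smooth muscle list, which makes up the score, 4 genes then remained higher and 1 was lower, with a median of 0.13. Of the collagens 3 were higher and 2 lower, of the elastic fibre genes 2 and 1, of the proteoglycans 2 and 0, of the proteases 5 and 1, and of the TGF-beta list 4 and 0, against 7.09% higher and 8.04% lower over all genes. Mfap4 (1.57, adjusted p = 2.552e-05) and Timp1 (1.84, adjusted p = 1.737e-08) stayed past the threshold, as did Ltbp3, Col5a2, Mmp3, Mmp23, Tgfbr3 and Id3. Vcan (0.68, adjusted p = 0.107), Bgn (0.39, adjusted p = 0.166) and Eln (0.02, adjusted p = 0.973) did not. Nor did Fbln5, Emilin1, Ogn, Mgp, Col18a1, Col4a5, Loxl1, Mmp19, Tgfbr1 and Bambi. The part of smooth muscle content in these differences was not tested further.

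**Figure D3:**
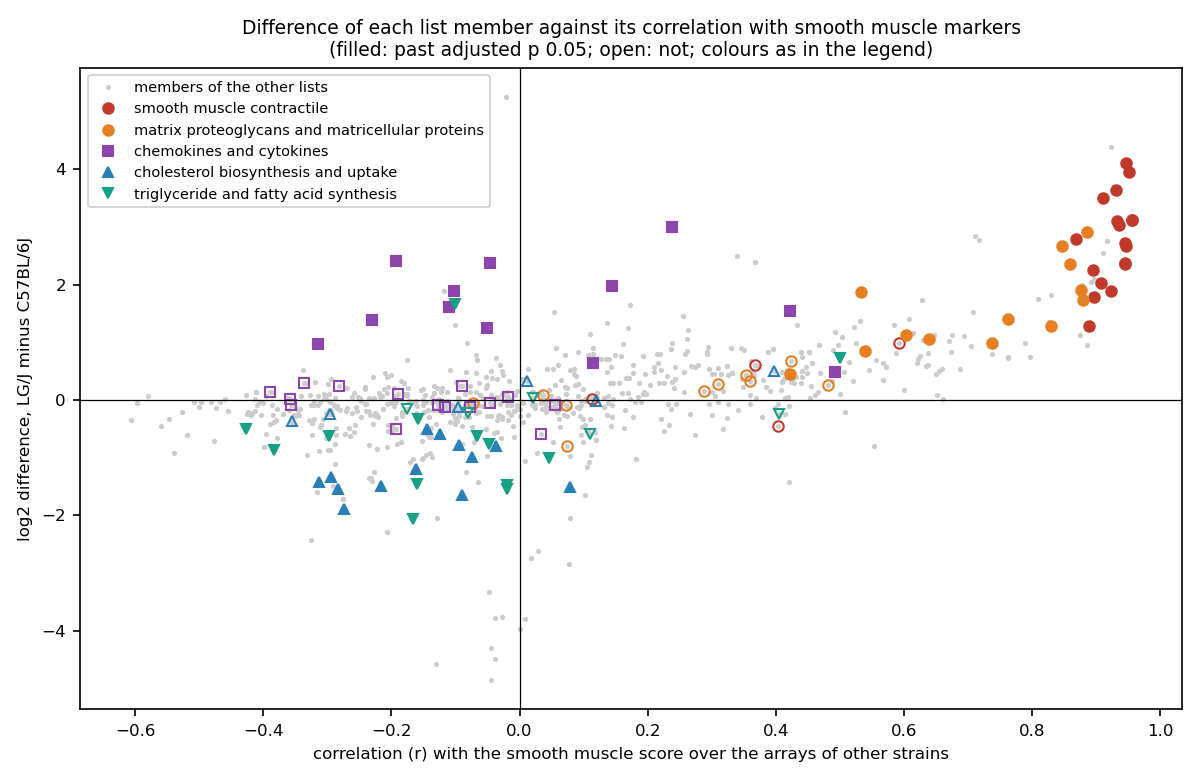
Log2 difference of LG/J minus C57BL/6J (vertical axis) against the correlation with the smooth muscle score over the 356 other arrays (horizontal axis) for the members of all gene lists, with 5 lists in colour and filled symbols for members past an adjusted p of 0.05. The smooth muscle genes that rose lie between 0.87 and 0.96, whereas the chemokines that rose lie between -0.32 and 0.49 and the cholesterol genes that fell between -0.31 and 0.08.

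Genes of fatty acid and triglyceride synthesis were lower in LG/J. Of 18 members, 11 fell and 2 rose, with a median difference of -0.60, and without C57BL/6J replicates 1 and 2 the count was 12 and 2. Slc25a1, the carrier that exports citrate from mitochondria for lipid synthesis, had 9.36, 9.18, 8.25 and 8.68 in LG/J, against 10.62, 10.98 and 11.19 in C57BL/6J (-2.06 ± 0.20, adjusted p = 0.000101). Acly, which splits this citrate into acetyl-CoA, had 11.98, 11.62, 10.96 and 10.81 in LG/J, against 12.38, 12.86 and 12.99 in C57BL/6J (-1.47 ± 0.22, adjusted p = 0.00079). Acaca, which makes malonyl-CoA in the next step, had 11.83, 11.83, 11.16 and 11.28 in LG/J, against 12.33, 12.55 and 12.70 in C57BL/6J (-1.0 ± 0.14, adjusted p = 0.000641). All 3 consecutive steps were thus lower on every LG/J array than on any C57BL/6J array. A second probe set of Acly differed by -2.67 and one of Acaca by -2.74, and both dimmer probe sets passed as well. Elovl6, which elongates palmitate, had 10.86, 10.65, 10.26 and 10.31 in LG/J, against 11.63, 12.09 and 12.29 in C57BL/6J (-1.54 ± 0.15, adjusted p = 8.61e-05). Lpin1, the phosphatidate phosphatase of triglyceride synthesis, fell by 1.45, and Thrsp, a lipogenic nuclear protein, fell by 0.33.

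Fasn, fatty acid synthase, did not pass, with 12.91, 12.90, 12.65 and 12.71 in LG/J, against 12.90, 12.98 and 13.14 in C57BL/6J. The probe sets of Scd1, the stearoyl-CoA desaturase, disagreed. The brighter one lay between 13.42 and 13.53 in LG/J and between 13.33 and 13.51 in C57BL/6J and did not pass, whereas the dimmer one fell by 1.0, with a mean of 10.43 in LG/J and 11.42 in C57BL/6J (adjusted p = 0.00892). Fasn and the brighter Scd1 probe set are near the top of the scale. The lipase and acyltransferase gene Pnpla3 and the desaturase gene Fads1 rose, by 1.67 and 0.73. Pnpla3 had 9.18, 9.04, 8.60 and 8.90 in LG/J, against 5.83, 7.36 and 8.25 in C57BL/6J, with no overlap. LG/J had the lowest mean of the panel for 8 of the 18 genes, against 816 (4.77%) of all genes, among them Slc25a1, Acly, Acaca, Elovl6, Lpin1 and Thrsp. The 13 genes past the threshold correlated with the smooth muscle score at -0.43 to 0.50 over the other strains, and with that score as a covariate 11 genes of the list were lower and 1 higher.

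Glucose handling moved in part. Of 23 genes of insulin signalling and glucose handling, 7 fell and 2 rose. Slc2a4, the insulin-sensitive glucose transporter GLUT4, fell by 0.81, with 9.64, 9.65, 9.27 and 9.30 in LG/J, against 9.84, 10.31 and 10.52 in C57BL/6J. Gys1, glycogen synthase, fell by 0.96, Ppp1r3c, which targets phosphatase to glycogen, by 1.41 and Tbc1d4, a substrate of AKT in transporter traffic, by 1.15. Each of these 4 genes was lowest in LG/J among the 101 strains. Slc2a1, the basal transporter GLUT1, rose by 0.99, with 6.29, 5.97, 6.41 and 6.11 in LG/J, against 4.99, 5.21 and 5.48 in C57BL/6J. Its call was lost in fits over all strains with the smooth muscle score (0.36, adjusted p = 0.31) or the general adipocyte score (0.40, adjusted p = 0.236) as a covariate, and the dimmer probe set of the gene did not pass (0.32, adjusted p = 0.133). Slc2a5, the fructose transporter, had 4.12, 3.48, 3.18 and 3.47 in LG/J, against 5.47, 6.32 and 6.78 in C57BL/6J, with a lower level in LG/J (-2.71 ± 0.25, adjusted p = 6.898e-05). Elovl3, which makes very long chain fatty acids in brown fat, had 8.51, 8.32, 7.83 and 8.04 in LG/J, against 10.24, 10.51 and 11.26 in C57BL/6J, and was 5.40-fold lower. Neither of these genes overlapped between the strains. Of the insulin and glucose list, 6 genes were lower and 1 was higher with the smooth muscle score as a covariate over all strains.

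Cholesterol synthesis was lower as a group. Of 19 genes of cholesterol biosynthesis and uptake, 13 fell and none rose, with a median difference of -0.80, and without C57BL/6J replicates 1 and 2 the count was 14 lower and 1 higher. Promoters of 4 of the genes that fell are shown for their CCAAT boxes, the site of factor NF-Y, a partner of SREBP at sterol-regulated promoters. The letters CCAAT occurred on either strand within 250 bases before the start site in all 15 list members with a window in RefSeq, and in all 11 of them that fell, against 37.5% of all genes and 9 of 19 smooth muscle genes. A CArG box that begins with these letters would count for both. The stretches run from 120 bases to 1 base before the start (GRCm38.p6, 5′ to 3′), and capitals mark the box on either strand. Cyp51 lies at chr5:4104698-4104817 on the minus strand, Dhcr7 at chr7:143830094-143830213, Idi1 at chr13:8885486-8885605 and Nsdhl at chrX:72918401-72918520, all 3 on the plus strand.
Cyp51: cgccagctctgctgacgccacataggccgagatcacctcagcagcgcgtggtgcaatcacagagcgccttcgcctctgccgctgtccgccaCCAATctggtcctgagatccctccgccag
Dhcr7: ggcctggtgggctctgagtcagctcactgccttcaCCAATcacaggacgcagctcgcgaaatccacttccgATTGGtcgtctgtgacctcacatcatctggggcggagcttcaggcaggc
Idi1: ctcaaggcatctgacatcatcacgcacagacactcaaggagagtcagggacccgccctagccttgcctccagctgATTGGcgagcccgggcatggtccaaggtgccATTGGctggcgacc
Nsdhl: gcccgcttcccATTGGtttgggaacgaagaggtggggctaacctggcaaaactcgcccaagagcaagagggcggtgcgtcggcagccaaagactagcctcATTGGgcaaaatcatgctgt
Dhcr7, Idi1 and Nsdhl each hold 2 boxes in the stretch shown, and Cyp51 holds 1.

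The genes that fell span the pathway. Idi1, which isomerizes the isoprenoid building block, had 7.44, 7.37, 7.17 and 6.89 in LG/J, against 8.33, 8.67 and 8.87 in C57BL/6J (-1.42 ± 0.13, adjusted p = 7.8e-05). Fdps, farnesyl diphosphate synthase, had 6.56, 6.43, 6.05 and 6.17 in LG/J, against 7.91, 8.13 and 8.55 in C57BL/6J. The gap between the groups exceeded 1 on the log2 scale, and Fdps was 3.69-fold lower in LG/J (-1.89 ± 0.14, adjusted p = 1.677e-05). Sqle, the squalene epoxidase, had 5.10, 4.78, 4.73 and 4.59 in LG/J, against 5.64, 6.47 and 7.03 in C57BL/6J (-1.66 ± 0.22, adjusted p = 0.000469). Cyp51, the lanosterol demethylase, had 5.66, 5.61, 5.44 and 5.22 in LG/J, against 6.48, 6.84 and 7.14 in C57BL/6J (-1.34 ± 0.13, adjusted p = 7.581e-05). None of these genes overlapped. The later enzymes Nsdhl, Hsd17b7, Sc5d and Dhcr7 fell by 1.54, 1.52, 1.5 and 1.19. Hmgcs1, an early enzyme of the pathway, did not pass, at 4.11 to 4.50 in LG/J and 3.06 to 5.38 in C57BL/6J. It was read from 1 dim probe set, and it was lower in limma without C57BL/6J replicates 1 and 2 (-0.60, adjusted p = 0.0403).

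LG/J had the lowest mean of 101 strains for 7 of the 19 genes, namely Idi1, Fdps, Sqle, Nsdhl, Hsd17b7, Sc5d and Dhcr7, and it had the lowest score of the whole list, with C57BL/6J at rank 85 of 101. The list was thus compared between opposite sides of the panel, and C57BL/6J was itself high. With the smooth muscle score as a covariate over all strains, 9 of the 19 genes were lower and none was higher. Outside the pathway, Lipa, the lysosomal lipase that frees cholesterol from lipoproteins, had 7.40, 7.37, 7.06 and 7.42 in LG/J, against 8.69, 9.05 and 9.26 in C57BL/6J (-1.72 ± 0.13, adjusted p = 1.615e-05). Lrp1, a receptor for remnant lipoproteins, had 9.25, 9.35, 9.35 and 9.58 in LG/J, against 8.27, 8.39 and 8.65 in C57BL/6J (0.96 ± 0.10, adjusted p = 0.000108). These genes were the lowest and the highest of the panel in LG/J.

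**Figure D4:**
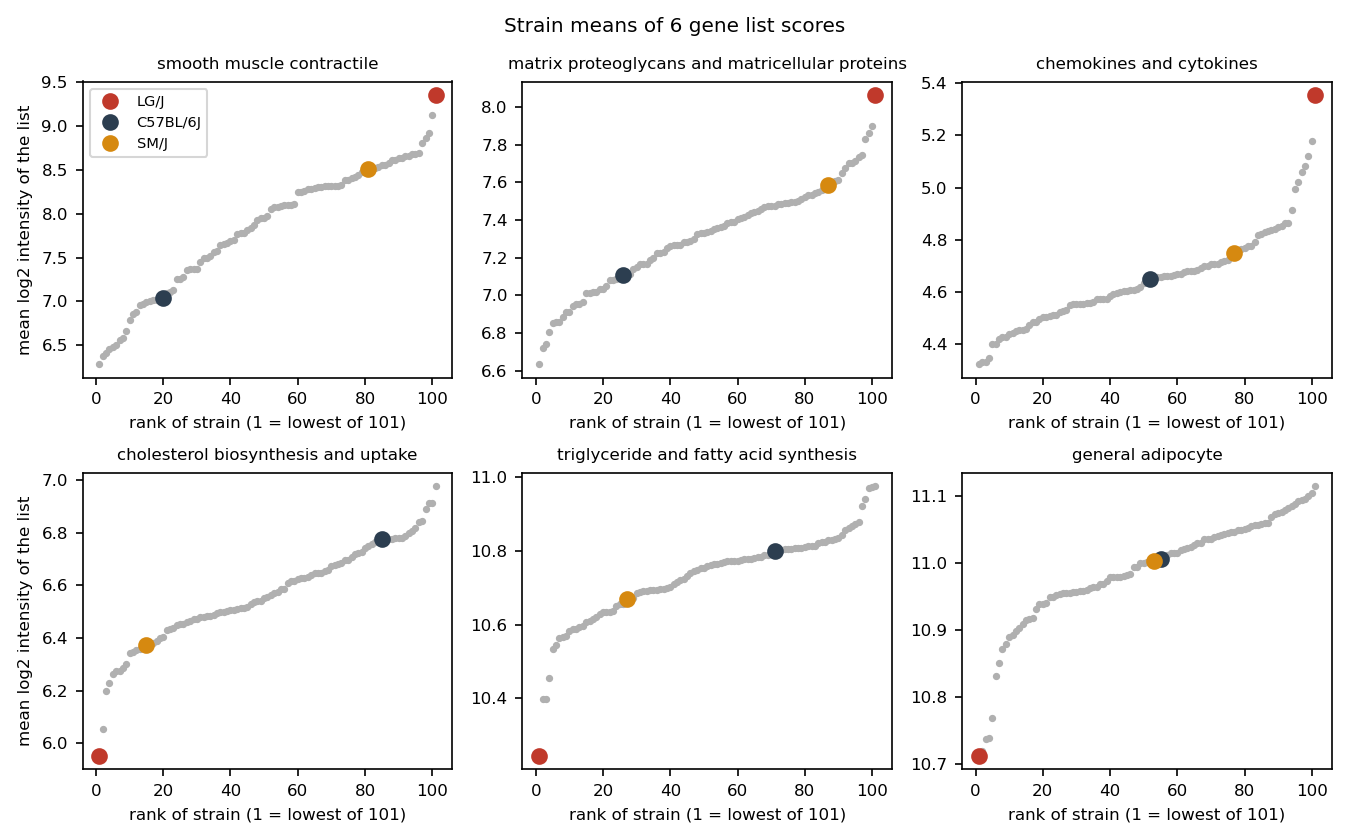
Mean log2 intensity of 6 gene lists in each of 101 strains, in order from the lowest (rank 1) to the highest (rank 101), with LG/J, C57BL/6J and SM/J in colour. LG/J is at rank 101 for smooth muscle, matrix proteoglycan and chemokine genes and at rank 1 for cholesterol synthesis, fatty acid and triglyceride synthesis and general adipocyte genes.

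Fat oxidation and adipocyte genes were lower by less. Of 21 fatty acid oxidation genes, 8 fell and none rose (median -0.21), and of 31 oxidative phosphorylation genes 9 fell and none rose (median -0.14). Ehhadh, the peroxisomal bifunctional enzyme, had 7.91, 8.24, 7.42 and 8.17 in LG/J, against 9.32, 10.02 and 10.45 in C57BL/6J (-2.04 ± 0.23, adjusted p = 0.000175). The thiolase gene Acaa1b fell by 1.42 and the mitochondrial thioesterase gene Acot2 by 1.36, while Uqcrfs1, the Rieske protein of complex III, fell by 0.37. Of 12 general adipocyte genes 5 fell and none rose, and of 13 brown adipocyte genes 5 fell and 1 rose. Beside these counts, 13.3% of all genes fell and 9.12% rose. With the smooth muscle score as a covariate over all strains, 4 fatty acid oxidation genes were lower and none higher. Of the oxidative phosphorylation genes 4 were lower and 1 higher, of the general adipocyte genes 4 and 2, and of the brown adipocyte genes 4 and 3. Over all genes, 8.04% were lower and 7.09% higher in that fit. Gpd1, which supplies glycerol phosphate, fell by 0.86, Cebpa, a master factor of adipocytes, by 0.77, the potassium channel gene Kcnk3 by 0.89 and the coenzyme A gene Pank1 by 0.66. Ucp1 fell by 0.30 (adjusted p = 0.027), a call that 5 of the 10 fits without 1 array did not keep. The adipocyte score was 10.70, 10.86, 10.51 and 10.78 in LG/J, against 10.91, 11.02 and 11.12 in C57BL/6J, and was the lowest of the panel in LG/J. The defining marker Adipoq thus differed by -0.02 while the score did not overlap between the strains. With the adipocyte score as a covariate over all strains, a fit chosen after the values were seen, Slc25a1 (-1.69), Acly (-1.30), Acaca (-0.75), Elovl6 (-1.34), Lpin1 (-1.21), Idi1 (-1.26), Fdps (-1.69) and Sqle (-1.59) remained past the threshold. The calls of Cebpa (-0.27, adjusted p = 0.0614), Kcnk3 (-0.27, adjusted p = 0.0914) and Ucp1 (-0.12, adjusted p = 0.181) were lost in that fit.

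Of 10 white adipocyte genes 1 rose and 2 fell (median -0.09), beside 9.12% of all genes higher and 13.3% lower. Retn, a further gene of fat, fell by 0.64 (adjusted p = 0.0153). Sncg, γ-synuclein, a gene of white fat, was higher, with 8.90, 8.85, 8.43 and 8.73 in LG/J, against 6.57, 7.19 and 7.73 in C57BL/6J (1.52 ± 0.20, adjusted p = 0.000477). Leptin (Lep) had 6.07, 5.15, 4.80 and 5.75 in LG/J, against 2.83, 4.36 and 5.30 in C57BL/6J, and did not pass (1.30 ± 0.46, adjusted p = 0.0723). Of 14 genes of mTORC1 and translation control 3 fell and 1 rose. The median difference of this list was -0.10, and 0.005 without C57BL/6J replicates 1 and 2. Mtor, the kinase itself, had 9.09, 9.26, 8.81 and 8.89 in LG/J, against 9.64, 9.86 and 10.11 in C57BL/6J (-0.86 ± 0.12, adjusted p = 0.000509), and its inhibitor Deptor fell by 1.07. Both the kinase and the inhibitor were lowest of the panel in LG/J.

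Chemokines were higher in LG/J. Of 27 chemokines and cytokines, 12 rose and none fell, and without C57BL/6J replicates 1 and 2 the count was 16 and 1. Ccl19, which draws lymphocytes and dendritic cells, had 7.22, 7.74, 7.51 and 8.54 in LG/J, against 4.38, 4.70 and 5.21 in C57BL/6J (3.01 ± 0.25, 8.04-fold, adjusted p = 3.799e-05). Ccl7, a monocyte attractant, had 4.04, 5.81, 5.6 and 6.43 in LG/J, against 2.78, 2.91 and 3.90 in C57BL/6J (2.37 ± 0.39, adjusted p = 0.00159). Cxcl12, which retains progenitor cells, had 10.18, 10.22, 10.53 and 10.57 in LG/J, against 8.42, 8.84 and 9.25 in C57BL/6J (1.55 ± 0.16, adjusted p = 0.000107). This was the brightest of 3 probe sets of Cxcl12, and the others did not pass (-0.39, adjusted p = 0.615, and -0.19, adjusted p = 0.148). No LG/J array overlapped with C57BL/6J in these genes, although LG/J replicate 1 was low in Ccl7. Ccl2 and Ccl12, further monocyte attractants, were 1.61 and 1.89 higher, and the neutrophil attractant Cxcl1 was 1.98 higher. In each of the 3, C57BL/6J overlapped at most with LG/J replicate 1, which was the lowest of its strain.

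Il33, an alarmin of stromal cells, had 7.89, 7.89, 8.10 and 8.48 in LG/J, against 6.51, 6.67 and 7.76 in C57BL/6J (1.25 ± 0.23, adjusted p = 0.0028). Il6 was near the floor of the scale, at 2.43 to 3.76 in LG/J and 2.06 to 2.48 in C57BL/6J. Cxcl14 was 2.42 higher, with LG/J at rank 71 of 101 and C57BL/6J at rank 35. LG/J had the highest mean of the panel for 9 of the 27 genes. The 12 that rose correlated with the smooth muscle score at -0.32 to 0.49 over the other strains, below the range of the contractile genes. With the smooth muscle score as a covariate over all strains, 12 genes were higher and none was lower.

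Lcn2, Ptx3 and Itih4, known as acute-phase genes, were named for their large differences and stand on no list of their own. Lcn2, lipocalin 2, had 5.82, 6.90, 6.91 and 8.37 in LG/J, against 3.33, 3.80 and 4.16 in C57BL/6J (3.23 ± 0.38, adjusted p = 0.000208). Ptx3, a pentraxin made locally in inflammation, had 3.25, 5.90, 5.18 and 7.25 in LG/J, against 2.65, 2.77 and 2.93 in C57BL/6J (2.61 ± 0.56, adjusted p = 0.00742). Itih4, an acute-phase inhibitor heavy chain, had 8.52, 9.80, 9.72 and 10.56 in LG/J, against 5.29, 6.06 and 7.37 in C57BL/6J (3.51 ± 0.45, adjusted p = 0.000362). In all 3 genes the LG/J arrays were above the C57BL/6J arrays, with replicate 1 lowest and replicate 4 highest of its strain, as for Ccl7, Cxcl1 and Ccl2. Itih4 correlated with the smooth muscle score at 0.70 over the other strains and was 1.76 higher with that score as a covariate (adjusted p = 0.000677). Socs3, the feedback inhibitor of the IL-6 family, was 1.14 higher, P-selectin (Selp) 1.47 higher and Vcam1 0.84 higher. Of 14 leukocyte adhesion genes 4 rose and none fell, and of 20 immediate-early and heat shock genes 7 rose and none fell.

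Of 24 macrophage genes none rose and 4 fell, and of 14 genes of foam cells and lesion macrophages 3 rose and 2 fell. Of 12 B cell and plasma cell genes 1 rose, and of 27 interferon-stimulated genes 1 rose. Of 13 T and NK cell genes none passed in limma (1 at an unadjusted p under 0.05). These counts stand beside 9.12% of all genes higher and 13.3% lower. In the macrophage list 10 of 24 differences were positive. Its median difference was -0.24, and -0.05 without C57BL/6J replicates 1 and 2. Cd163, a scavenger receptor of resident macrophages, had 5.82, 5.21, 5.47 and 5.22 in LG/J, against 5.88, 6.41 and 7.32 in C57BL/6J (-1.03 ± 0.25, adjusted p = 0.0154). Csf1r, the receptor of macrophage growth factor, fell by 0.78 and Cx3cr1, the fractalkine receptor, by 0.55. The call of Cx3cr1 was lost with the adipocyte score as a covariate over all strains (-0.50, adjusted p = 0.0589). C57BL/6J replicate 1 had the highest macrophage score of the 10 arrays, 6.95, against 5.80 to 6.16 in LG/J and 5.80 to 6.08 in the other C57BL/6J arrays. Without replicates 1 and 2, 2 macrophage genes rose and 4 fell, 5 foam cell genes rose and 2 fell, and 2 interferon-stimulated genes rose and 4 fell. In that setting 11.4% of all genes were higher and 14.5% lower. The foam cell score was 7.77 to 7.80 in LG/J, at rank 96 of the strains, and 7.51 to 7.71 in C57BL/6J. The call of Csf1r was lost without LG/J replicate 2 or 4. Lyve1, a marker of lymphatic vessels and of some macrophages, fell by 0.65, a call lost in 5 of 10 fits without 1 array.

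Of 10 MHC class II genes 1 rose and 2 fell, and of 13 class I and peptide loading genes 2 rose and 1 fell. These counts stand beside 9.12% of all genes higher and 13.3% lower. H2-Ea, which encodes the α chain of the class II molecule I-E, had 8.34, 8.31, 7.92 and 8.47 in LG/J, against 2.85, 2.91 and 3.30 in C57BL/6J (5.25 ± 0.13, adjusted p = 1.885e-09). C57BL/6 mice are known to lack this chain because of a promoter deletion. H2-Aa and Cd74, further class II genes, were lower, by 0.65 and 0.93. H2-Aa had 9.35, 9.16, 9.10 and 9.43 in LG/J, against 9.69, 9.79 and 10.33 in C57BL/6J. A second bright probe set of H2-Aa did not pass (0.18, adjusted p = 0.7), and the call of the first was lost with the smooth muscle score as a covariate over all strains (-0.36, adjusted p = 0.248). For the class I gene H2-D1 the 5 probe sets disagreed: 2 were higher in LG/J, by 6.03 and 5.01, whereas the brightest differed by -0.00 and the others by 0.15 and -0.02. The first had 8.66, 8.76, 8.41 and 8.55 in LG/J, against 2.38, 2.53 and 2.94 in C57BL/6J. Class I genes are near-identical copies that vary in sequence between strains, so a difference of a probe set there may be one of sequence and not of level, which was not tested. The same holds for H2-Q10, which fell by 1.00.

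Of 24 genes of the growth hormone and insulin-like growth factor axis, 6 rose and none fell, with a median difference of 0.05. Over all genes, 9.12% were higher and 13.3% were lower. The score of this list placed LG/J at rank 101 of 101 and C57BL/6J at rank 79. Igf1r, the receptor of IGF-1, had 7.19, 7.22, 7.35 and 7.09 in LG/J, against 5.62, 6.34 and 6.73 in C57BL/6J (0.96 ± 0.20, adjusted p = 0.00633). It correlated with the smooth muscle score at 0.89 over the other strains, and with that score as a covariate over all strains it differed by -0.33 (adjusted p = 0.103). Grb10, an adaptor that restrains growth factor receptors, rose by 0.69, and Jak2, the kinase of the growth hormone receptor, by 0.52. Both calls were lost with the smooth muscle score (0.17, adjusted p = 0.519, for Grb10 and 0.23, adjusted p = 0.0967, for Jak2). Igf1 had 8.41, 8.43, 8.69 and 8.28 in LG/J, against 7.42, 7.79 and 8.44 in C57BL/6J, and did not pass (0.54 ± 0.19, adjusted p = 0.0724). With the smooth muscle score as a covariate, 3 of the 24 genes were higher and none was lower. Over all genes, 7.09% were higher and 8.04% lower in that fit. Neither Ghr, the growth hormone receptor (-0.08), nor Socs2, its feedback inhibitor (0.60, adjusted p = 0.209), passed.

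Few of 25 endothelial genes passed, with 2 higher and 1 lower, beside 9.12% of all genes higher and 13.3% lower. Pecam1, the adhesion molecule CD31, had 8.21, 8.11, 8.13 and 7.99 in LG/J, against 5.81, 7.14 and 7.36 in C57BL/6J (1.17 ± 0.27, adjusted p = 0.0101), and was the highest of the panel. Plvap, of fenestrated endothelium, was 0.67 higher, a call lost without LG/J replicate 1 or 3. Of 16 hepatocyte genes 3 fell and none rose, with a median difference of -0.18, beside 13.3% of all genes that fell. Mup3, a major urinary protein made by hepatocytes, had 3.02, 3.05, 2.55 and 2.77 in LG/J, against 6.79, 7.28 and 8.15 in C57BL/6J (-4.58 ± 0.26, adjusted p = 4.152e-06). Apoc3, an apolipoprotein of liver and gut, fell by 2.29. Mup genes are a family of near-identical copies, which the array cannot separate. The score of the hepatocyte list was 3.03 to 3.11 in LG/J and 3.55 to 4.12 in C57BL/6J.

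Skeletal muscle genes differed from mouse to mouse. Tnnc2, fast troponin C, had 3.43, 11.09, 4.46 and 3.10 in LG/J, against 7.63, 10.50 and 12.17 in C57BL/6J. LG/J replicate 2 was thus as high as C57BL/6J, and the others were low. The difference of -4.86 passed (adjusted p = 0.0397), as did those of Acta1 (-4.49) and Tnni2 (-4.31), but the 3 calls were lost in 8 of 10 fits without 1 array, and without C57BL/6J replicates 1 and 2 (adjusted p = 0.0778 to 0.0986). The skeletal muscle score was 4.99, 8.23, 5.17 and 4.61 in LG/J, against 5.88 to 9.78 in C57BL/6J.

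Clock genes differed in both directions. Of 16 genes 6 rose and 4 fell. Per3, a repressor of the clock, had 7.75, 7.66, 8.10 and 7.88 in LG/J, against 6.11, 6.52 and 6.90 in C57BL/6J (1.34 ± 0.16, adjusted p = 0.000258), and Per2 rose by 1.24 (0.96 with the smooth muscle score as a covariate over all strains, adjusted p = 0.0583). Dbp, an output factor, had 7.59, 7.48, 7.68 and 7.49 in LG/J, against 4.80, 5.75 and 6.96 in C57BL/6J (1.88 ± 0.33, adjusted p = 0.00236). Arntl, which encodes the activator BMAL1, had 4.17, 3.98, 4.52 and 3.46 in LG/J, against 4.76, 5.49 and 5.86 in C57BL/6J (-1.42 ± 0.23, adjusted p = 0.00131), and Cry1 fell by 0.73. The groups did not overlap for these genes. C57BL/6J had the highest mean of 101 strains for Arntl and Cry1, while LG/J ranked 29 and 38. The study's methods give the same early morning start and the same length of fast for the mice before euthanasia. The hour at which each mouse was taken is not given in the sources used here. The part of the hour in these differences was not tested.

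Single genes with large differences included some that did not belong to any of these groups. Hal, histidine ammonia-lyase, had 6.18, 5.81, 6.13 and 6.23 in LG/J, against 2.33, 2.48 and 2.82 in C57BL/6J (3.58 ± 0.12, adjusted p = 2.862e-08). Mtarc1, a molybdenum enzyme of the mitochondrial outer membrane, had 4.19, 3.54, 3.22 and 3.63 in LG/J, against 7.54, 7.82 and 8.20 in C57BL/6J (-4.21 ± 0.18, adjusted p = 5.094e-07). Ttc25, a protein of motile cilia, had 4.60, 4.29, 3.14 and 3.92 in LG/J, against 6.5, 7.65 and 8.19 in C57BL/6J (-3.50 ± 0.37, adjusted p = 0.000125). All 3 genes were at an end of the panel in LG/J, and no array overlapped. Egln3, a prolyl hydroxylase of the hypoxia pathway, fell by 2.43, Tfr2, the second transferrin receptor, by 2.29, the lipid flippase gene Atp8a1 by 2.32 and Smim10l1 by 2.29. The probe sets of Atp8a1 and Smim10l1 read here are not the brightest of their genes. The other 6 probe sets of Atp8a1 differed by -0.85 to 0.14, and the brightest of Smim10l1 fell by 0.82.

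Among genes considered for this panel, Wdr73 had 5.41, 6.21, 5.08 and 5.76 in LG/J, against 6.35, 6.63 and 6.89 in C57BL/6J (-1.0 ± 0.19, adjusted p = 0.00386), the lowest of the 101 strains. Nectin2, an adhesion molecule of cell junctions, fell by 0.77 (adjusted p = 0.00114). Fitted over all strains, Wdr73 was not past the threshold with the smooth muscle score (-0.38, adjusted p = 0.174) or the adipocyte score (-0.38, adjusted p = 0.133) as a covariate. Nectin2 was not either, with the smooth muscle score (-0.23, adjusted p = 0.395) or the adipocyte score (-0.14, adjusted p = 0.552). Apelin (Apln) had 3.74, 4.26, 4.04 and 3.84 in LG/J, against 4.14, 4.47 and 4.87 in C57BL/6J (-0.50 ± 0.15, adjusted p = 0.0346), a call lost in 6 of 10 fits without 1 array and with either score as a covariate (-0.38, adjusted p = 0.25, and -0.29, adjusted p = 0.392). Neither Apoe (0.21, adjusted p = 0.61) nor Nnmt (0.09, adjusted p = 0.841) passed. Nnt, the mitochondrial transhydrogenase, which is known to carry a deletion in C57BL/6J, had 7.52, 6.60, 7.72 and 6.51 in LG/J, against 4.93, 5.78 and 6.53 in C57BL/6J (1.30 ± 0.35, adjusted p = 0.0255). The strains overlapped at 1 array of each, and the call was lost in 3 of 10 fits without 1 array. Nnt differed by -0.21 (adjusted p = 0.867) with the smooth muscle score as a covariate over all strains, and by -0.33 (adjusted p = 0.78) with the adipocyte score.

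Set against the equally weighted mean of the other strains with at least 2 arrays, LG/J differed at 9500 probe sets, 21% of those tested, 4687 higher (10.4%) and 4813 lower (10.7%). The LG/J arrays are shared with the comparison above, so the values are given side by side and not as a second test. With 1 probe set per gene, where 13% of genes were higher and 12.2% lower, the smooth muscle list had 18 genes higher and none lower of 22, the chemokine list 14 and none of 27, the cholesterol list 1 higher and 10 lower of 19 and the fatty acid and triglyceride list 1 higher and 12 lower of 18. Myh11 was 2.38 above the other strains and 3.96 above C57BL/6J, whereas Ccl19 was 2.75 and 3.01 above them and Fdps -1.67 and -1.89 from them. Lcn2 was 3.22 above the other strains and 3.23 above C57BL/6J, Hal 2.95 and 3.58, and H2-Ea 2.78 and 5.25, whereas Mup3 was at -2.44 and -4.58. The clock gene Arntl (-0.40, adjusted p = 0.293) did not pass against the other strains.

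Against SM/J, 7592 probe sets passed, 16.8% of those tested, with 2625 higher (5.82%) and 4967 lower (11%) in LG/J. The count was 4621 without SM/J replicate 2 and 4628 without SM/J replicate 3. The smooth muscle list had 15 of 22 genes higher and none lower, but with a median of 0.94, against 2.52 for C57BL/6J. Myh11 was 0.99 higher than in SM/J (adjusted p = 0.0293), and Col1a1 and Eln did not pass. The chemokine list had 12 of 27 genes higher and none lower, the cholesterol list 10 of 19 lower and 1 higher, and the fatty acid and triglyceride list 7 of 18 lower and 1 higher. Ccl7 was 2.70 higher, Ptx3 2.76 and Lcn2 3.06 higher than in SM/J, whereas Fdps fell by 1.11 and Lipa by 1.7. With 1 probe set per gene the shares over all genes were 7.38% higher and 10.7% lower.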

How the data were processed

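Total RNA of each mouse's aorta was hybridized to 1 Affymetrix array, which the labels and the study's methods name differently. Per the labels, GCOS and RMA were used by the authors, and the deposited values are log2 intensities. Their settings and versions are not given in the sources used here. RMA equalizes the distributions of the arrays, so that a change shared by most probe sets would not be seen. Array number limits the precision. Of 45141 probe sets, 28898 have 1 gene symbol, 551 several and 15692 none in the platform annotation.

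LG/J and C57BL/6J arrays were compared by limma 3.58.1 in R 4.3.3 (lmFit, eBayes, two-sided, Benjamini-Hochberg over all probe sets, threshold 0.05), and single genes also by an exact permutation test of the means (two-sided). SM/J was compared likewise, and the other strains in a model with 1 mean for each of 95 strains (360 arrays). The scripts were tested on simulated data. No 2 arrays held identical values. Each gene was represented by the 1-symbol probe set that was brightest on average over the whole panel, unless stated. Lists were described by counts and medians only, 815 of 934 entries being measured. Named genes were the 15 highest and 15 lowest differences (there, the probe set with the larger difference), up to 4 members of each list, 5 at each end of the other comparisons and genes fixed for the study or strain. Acta2, Myocd, Des, Acly, Fasn, Scd1, Pnpla3, Fads1, Sqle, Nsdhl, Hsd17b7, Sc5d, Hmgcs1, Adipoq, Fabp4, Ucp1, Cxcl1, Ccl2, Ccl12, Il33, Il6, Dbp, Col1a1 and Eln were added after their values were seen. The members and lists were chosen with earlier results of these data known. Promoters came from RefSeq (GRCm38.p6). Alternatives were other priors, weights, scalings, filters, marker scores as covariates, and leaving out arrays.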

Additional observations from a re-analysis of the deposited data

Results flagged for a closer look

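Among 278 sets of values of 1 gene in LG/J or C57BL/6J, 19 held 1 array far from the nearest other, where chance gives about 1 in 20 sets. C57BL/6J replicate 1 accounted for 8 of them and LG/J replicate 2 for 4. C57BL/6J replicate 1 was lowest in lipogenic genes: Acly at 12.38 (next 12.77) and, in its dimmer probe set, 10.6 (next 11.2), the dimmer probe set of Acaca at 5.47 (next 6.33), Elovl6 at 11.63 (next 12.07) and Scd1 at 13.33 (next 13.46). The same array was highest in Ccl12 at 3.99 (next 2.99), Il33 at 7.76 (next 6.83) and Mmp19 at 4.93 (next 4.65). C57BL/6J replicate 2 was lowest in Pecam1 at 5.81 (next 6.84) and Socs2 at 5.48 (next 6.90), and replicate 5 in Cebpa at 9.40 (next 9.72).

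LG/J replicate 2 was far above the other LG/J arrays in the skeletal muscle genes Acta1 at 11.15 (next 4.93), Tnnc2 at 11.09 (next 4.46) and Tnni2 at 9.97 (next 3.76), and above them in Hmgcs1 at 4.5 (next 4.17). LG/J replicate 3 was lowest in H2-Q10 at 7.25 (next 7.8), Lipa at 7.06 (next 7.37) and Mmp19 at 3.25 (next 3.82), and replicate 1 in Socs3 at 3.83 (next 5.0).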

How the results depend on the processing

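No paired analysis was possible because the labels tie no LG/J mouse to a C57BL/6J mouse. Leaving out each array in turn gave 6036 to 8752 probe sets (2320 to 3520 higher, 3716 to 5232 lower in LG/J), and 213 to 275 of the listed genes. Of 139 gene values followed, 126 passed and 117 kept their call in all 10 such fits. Those lost in at least 1 fit were Acta1, Apln, Csf1r, Lyve1, Nnt, Plvap, Tnnc2, Tnni2 and Ucp1. Requiring 1.5-fold left 3907 probe sets (1734 higher, 2173 lower). As a covariate among these 10 arrays only, the adipocyte score left 496 (162 and 334, 25 listed genes). The smooth muscle score left 1577 (304 and 1273, 35 listed genes). Neither score overlapped between the strains, so such a fit cannot tell strain from score. Fitted over all strains, the smooth muscle score left 6708 (2822 and 3886; 151 listed genes, against 256) and the adipocyte score 6775 (3043 and 3732; 256 listed genes). Against the other strains, leaving out LG/J arrays gave 6116 (2959 and 3157, without replicate 3) to 7843 (3965 and 3878). Against SM/J, a spread shared over all strains gave 4813 (1650 and 3163), and leaving out arrays gave 4621 to 8047 (1346 to 2743 and 3228 to 5304), lowest without SM/J replicate 2 or 3 (4628), with 1588 higher without SM/J replicate 4.

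Signs turned for some values. With the smooth muscle score they became -0.72 for Acta2, 0.10 for Adipoq, -0.28 for Cnn1, -0.42 for Col1a1, 0.087 for Csf1r, -0.0847 for Des, -0.0483 for Fabp4, -0.30 for Fblim1, -0.28 for Igf1r, -1.17 for Myh11, -0.37 for Myocd, -0.0665 for Pecam1, -0.0398 for Scd1, -0.64 for Socs2 and -0.17 for Susd5. With that score over all strains they became -0.20 for Acta2, -0.0873 for Adcy5, 0.0027 for Adipoq, -0.30 for Col1a1, -0.0269 for Col4a5, -0.48 for Des, -0.33 for Igf1r, -0.62 for Myocd, -0.21 for Nnt and -0.43 for Socs2. With the adipocyte score they became -0.38 for Apoe, -0.0345 for Col1a1, -0.44 for Des, 0.23 for Ghr and 0.80 for Hmgcs1, and over all strains 0.15 for Adipoq, -1.54 for Des, 0.0768 for Ghr, 0.0902 for Hmgcs1 and -0.33 for Nnt. Among differences near 0, centring gave 0.00402 for Adipoq and quantile normalization -0.0525 for Scd1. Leaving out arrays in turn gave -0.0924 to 0.14 for Des, -0.38 to 0.0806 for Hmgcs1 and -0.0597 to 0.27 for Nnmt. The cause was not tested. Genes near the floor or the top of the scale are limited by it.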
